A study of Mus musculus with 3 samples.

Results

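The HOX genes were examined in 3 bulk RNA sequencing libraries of sorted mouse mammary cells. They were taken as every gene row whose Ensembl identifier, without its version, belongs to a protein-coding gene named Hoxa, Hoxb, Hoxc or Hoxd with a number. This gave 39 of the 52661 gene rows, among 21786 protein-coding genes: 11 genes of the Hoxa cluster on chromosome 6, 10 of Hoxb on chromosome 11, 9 of Hoxc on chromosome 15 and 9 of Hoxd on chromosome 2. According to the labels these were mammary epithelial cells that carry PROCR (protein C receptor), sorted as EpCAM positive with high CD49f (integrin alpha 6). They were divided by the fatty acid transporter CD36 and the mucin-type glycoprotein podoplanin (PDPN). The CD36+ library is CD36 positive and PDPN negative, with Cdh5+ (VE-cadherin) in its title. The PDPN+ library is CD36 negative and PDPN positive, with Cdh5- in its title. The double-negative library lacks both surface proteins and has Cdh5+ in its title. The sources used here do not give strain, age, sex, the number of mice or cells behind a library, or which of the kits and instruments named in the labels served which library.

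HOX genes encode homeodomain transcription factors that give cells their position along the body axis. They lie in clusters, and a gene's number, its paralogue group, follows its place in the cluster: low numbers are used towards the head and early, high numbers towards the tail, the limb ends and the urogenital tract. Polycomb complexes keep unused HOX genes silent, trithorax complexes keep used ones active, and HOX proteins bind DNA with cofactors of the TALE class such as PBX and MEIS. Adult cells, endothelial cells and fibroblasts among them, often keep a HOX pattern from their place of origin, and several HOX genes have roles in mammary gland development and in the growth of blood vessels.

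The tables held 67675778 estimated counts in CD36+, 63871266 in PDPN+ and 51138993 in double-negative cells. Levels are given as CPM (counts per 1000000 of the TMM-scaled library size) for comparing libraries and as TPM, which also corrects for transcript length, for comparing genes. With 1 library per population, no difference has a replicate check and no p-value is given. The intervals are 95% intervals from the counts, cover counting error only, and compare libraries, not populations. The 12 endothelial markers checked summed to 6522 CPM in CD36+, 143 in PDPN+ and 4479 in double-negative cells, with Robo4 alone at 0 counts, in the PDPN+ library. The 12 basal epithelial markers summed to 91.2, 6861 and 317 CPM in the same order. In the CD36+ library Serpinb5 had 0 counts and 6 of the 12 basal markers were below 1 CPM, Krt14 and Trp63 included. Several defining basal markers were therefore at or near 0 in the CD36+ library, although its label names epithelial cells. The 12 luminal markers summed to 351, 641 and 299 CPM, with Wap at 0 in all 3 libraries and Cited1 at 0 in the CD36+ library. Their medians were 6.44, 1.27 and 4.55 CPM, so the PDPN+ sum does not describe the list as a whole. Of 10 at 1 CPM or more in some library, 4 were at least 2-fold higher and 4 lower in CD36+ than in PDPN+ cells. In double-negative cells 5 were higher and 2 lower. The 12 fibroblast markers summed to 193, 729 and 122 CPM, with Twist2 at 0 in the CD36+ and double-negative libraries and Mfap5 at 0 in the CD36+ library. The 6 lymphatic markers summed to 64.4, 119 and 3503 CPM, with Mmrn1 at 0 in the CD36+ library. Their medians were 5.98, 15.7 and 9.23 CPM, so the double-negative sum does not describe the list as a whole. Of 5 at 1 CPM or more in some library, 2 were at least 2-fold higher and 2 lower in double-negative than in PDPN+ cells. The 8 pericyte markers summed to 283, 111 and 215 CPM, with Higd1b at 0 in all 3 libraries and Kcnj8 at 0 in the double-negative one. The 5 adipocyte markers summed to 91.1, 2.72 and 37.3 CPM, with Adipoq at 0 throughout, Lep at 0 for CD36+ and Pparg at 0 for PDPN+. The 8 immune markers summed to 17.4, 2.08 and 1.66 CPM. Among them, Cd3e and Adgre1 were at 0 in the CD36+ and double-negative libraries, Lyz2 in the PDPN+ and double-negative libraries, and Csf1r in the PDPN+ library. The endothelial, pericyte and adipocyte sums had the same order of libraries as the summed HOX level below. Member by member, 11 endothelial markers were at least 2-fold above PDPN+ and 0 below it, in CD36+ and in double-negative cells alike. Of 7 pericyte markers at 1 CPM or more in some library, 2 were higher and 3 lower in CD36+ than in PDPN+ cells. In double-negative cells 2 were higher and 4 lower. Of 2 such adipocyte markers, 1 was higher and 0 lower in each comparison. The part of these cell types in the HOX values was not tested. In bulk RNA, fewer cells of a type and less RNA per cell cannot be told apart.

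HOX transcripts were most abundant in the CD36+ library, lower in the double-negative library and lowest in the PDPN+ library. The 39 genes together had 6986 counts in CD36+, 1060 in PDPN+ and 2880 in double-negative cells, or 118, 14.3 and 57.0 CPM. The CD36+ sum was 8.23-fold the PDPN+ sum (interval 7.72 to 8.79) and 2.07-fold the double-negative sum (1.98 to 2.16). The double-negative sum was 3.98-fold the PDPN+ sum (3.71 to 4.27). By TPM the sums were 74.5, 17.0 and 51.5, a smaller contrast of 4.37-fold between the CD36+ and PDPN+ libraries. Even in the CD36+ library, HOX genes took only 0.0103% of all counts.

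Most HOX genes had few or no reads. Only 12 of the 39 reached 1 CPM in any library (30.8%), against 60.8% of all protein-coding genes. In the CD36+ library 11 HOX genes reached 1 CPM, where 47.6% of protein-coding genes did. In the PDPN+ library 4 did, beside 51.7% of protein-coding genes, and in the double-negative library 8 did, beside 46.8%. A level of 10 CPM was reached by 4, 0 and 2 HOX genes in CD36+, PDPN+ and double-negative cells, beside 31.7%, 33.8% and 31.5% of protein-coding genes. The 12 genes were not spread evenly: 7 of the 10 Hoxb genes, 4 of the 9 Hoxd genes, 1 of the 11 Hoxa genes and 0 of the 9 Hoxc genes. All 12 had their highest level in a library whose title carries Cdh5+. These were 9 in the CD36+ library and 3 (Hoxb2, Hoxb3 and Hoxd10) in the double-negative library. For Hoxb3 the PDPN+ library lay within counting error of the double-negative one by CPM but not by TPM. Only 4 of the 12 reached 1 CPM in the PDPN+ library. The others could enter only through a library with Cdh5+ in its title, so the minimum fixed where their highest level lay. How often all genes have their highest level in such a library was not tested, so nothing is read from this count. Below 1 CPM, Hoxc8 and Hoxd11 were highest in the PDPN+ library.

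**Figure D1:**
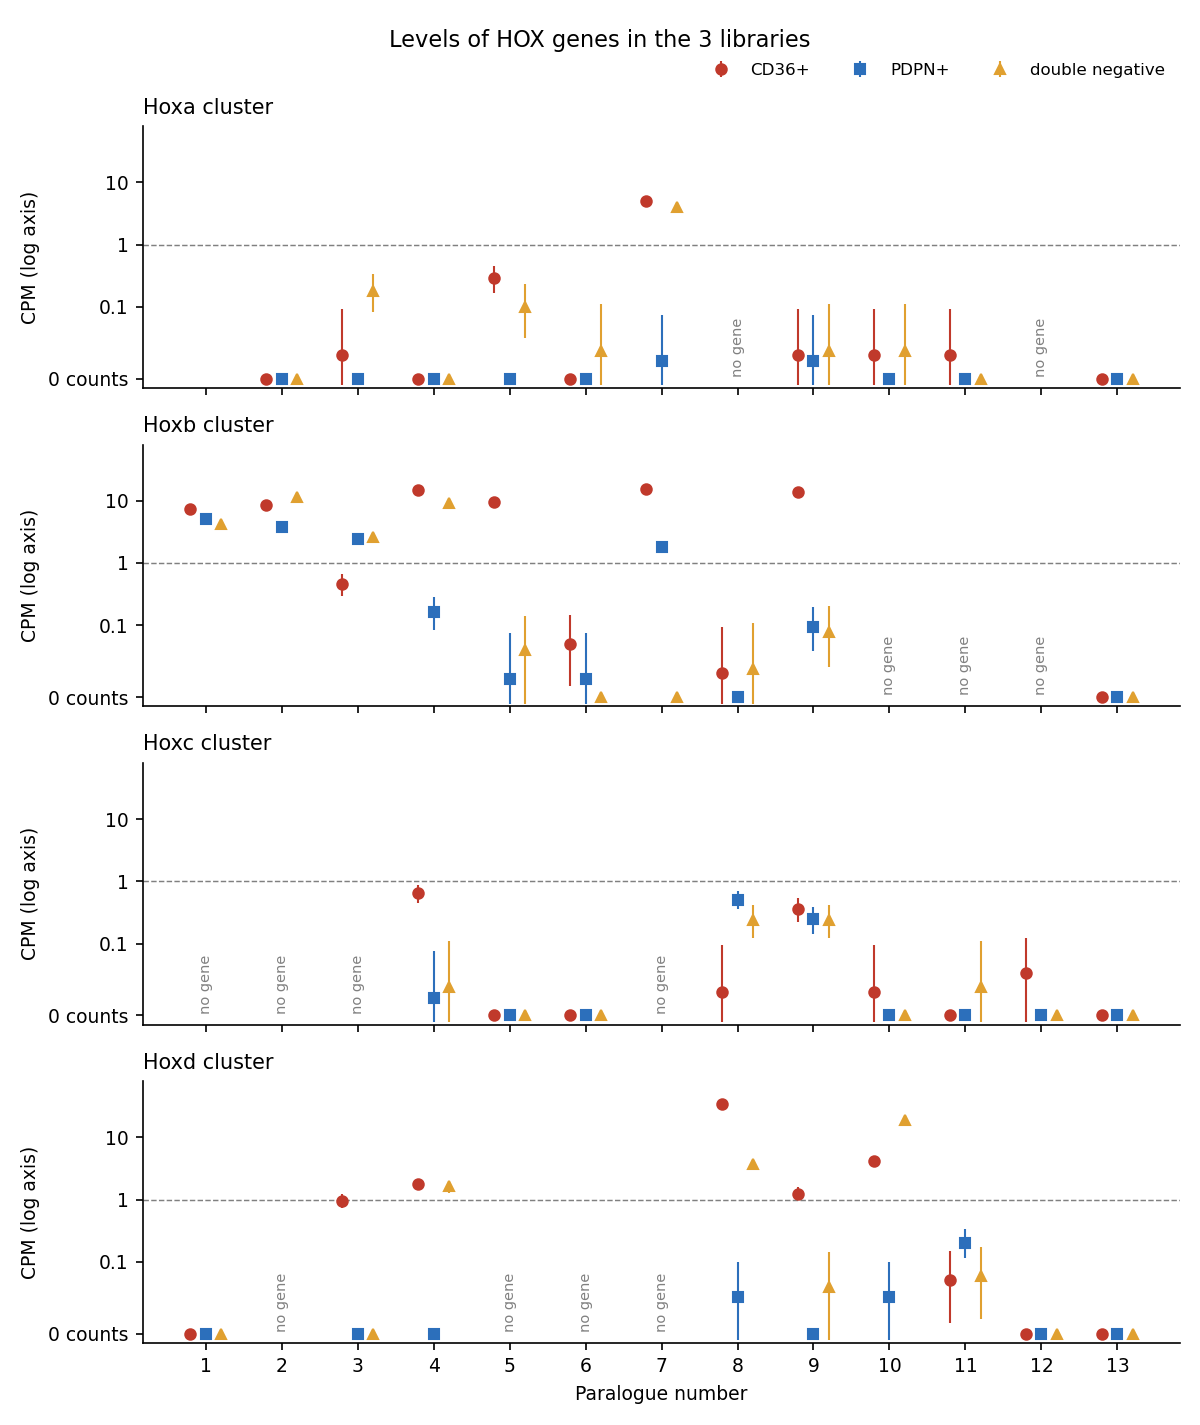
Levels of HOX genes in each library, by cluster (rows) and paralogue number (horizontal axis). The vertical axis is CPM on a log scale, points are single libraries with 95% counting intervals, genes at 0 counts sit at the bottom, and the dashed line is 1 CPM. Hoxb and Hoxd hold 11 of the 12 genes that reach the line, and the CD36+ points are highest for 9 of the 12.

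The clusters differed in how far the PDPN+ library fell short. Summed over its members, Hoxa had 5.37 CPM in CD36+, 0.0270 in PDPN+ (2 counts) and 4.48 in double-negative cells. Hoxd had 41.8, 0.257 and 24.5 CPM. These 2 clusters were nearly unread in the PDPN+ library: the CD36+ library exceeded it 163-fold for Hoxd (interval 104 to 271) and the double-negative library 95.4-fold (60.9 to 159). Hoxb had 69.7, 13.3 and 27.5 CPM, so the CD36+ library was 5.25-fold above the PDPN+ library (4.89 to 5.63) and the double-negative library 2.07-fold above it (1.91 to 2.25). By TPM the Hoxb sums were 47.0, 16.3 and 28.4, and the CD36+ excess over PDPN+ was smaller, at 2.88-fold. Between the CD36+ and double-negative libraries, the ratio by CPM and by TPM was 1.20 and 2.15 for Hoxa, 2.53 and 1.65 for Hoxb, and 1.71 and 1.04 for Hoxd. Hoxc was low throughout, at 1.06, 0.757 and 0.515 CPM, and its difference between the CD36+ and PDPN+ libraries was within counting error (1.41-fold, 0.965 to 2.05). As shares of the HOX TPM, Hoxb made up 63.0% in CD36+, 95.7% in PDPN+ and 55.3% in double-negative cells. Hoxd made up 27.6%, 0.835% and 38.4%.

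**Figure D2:**
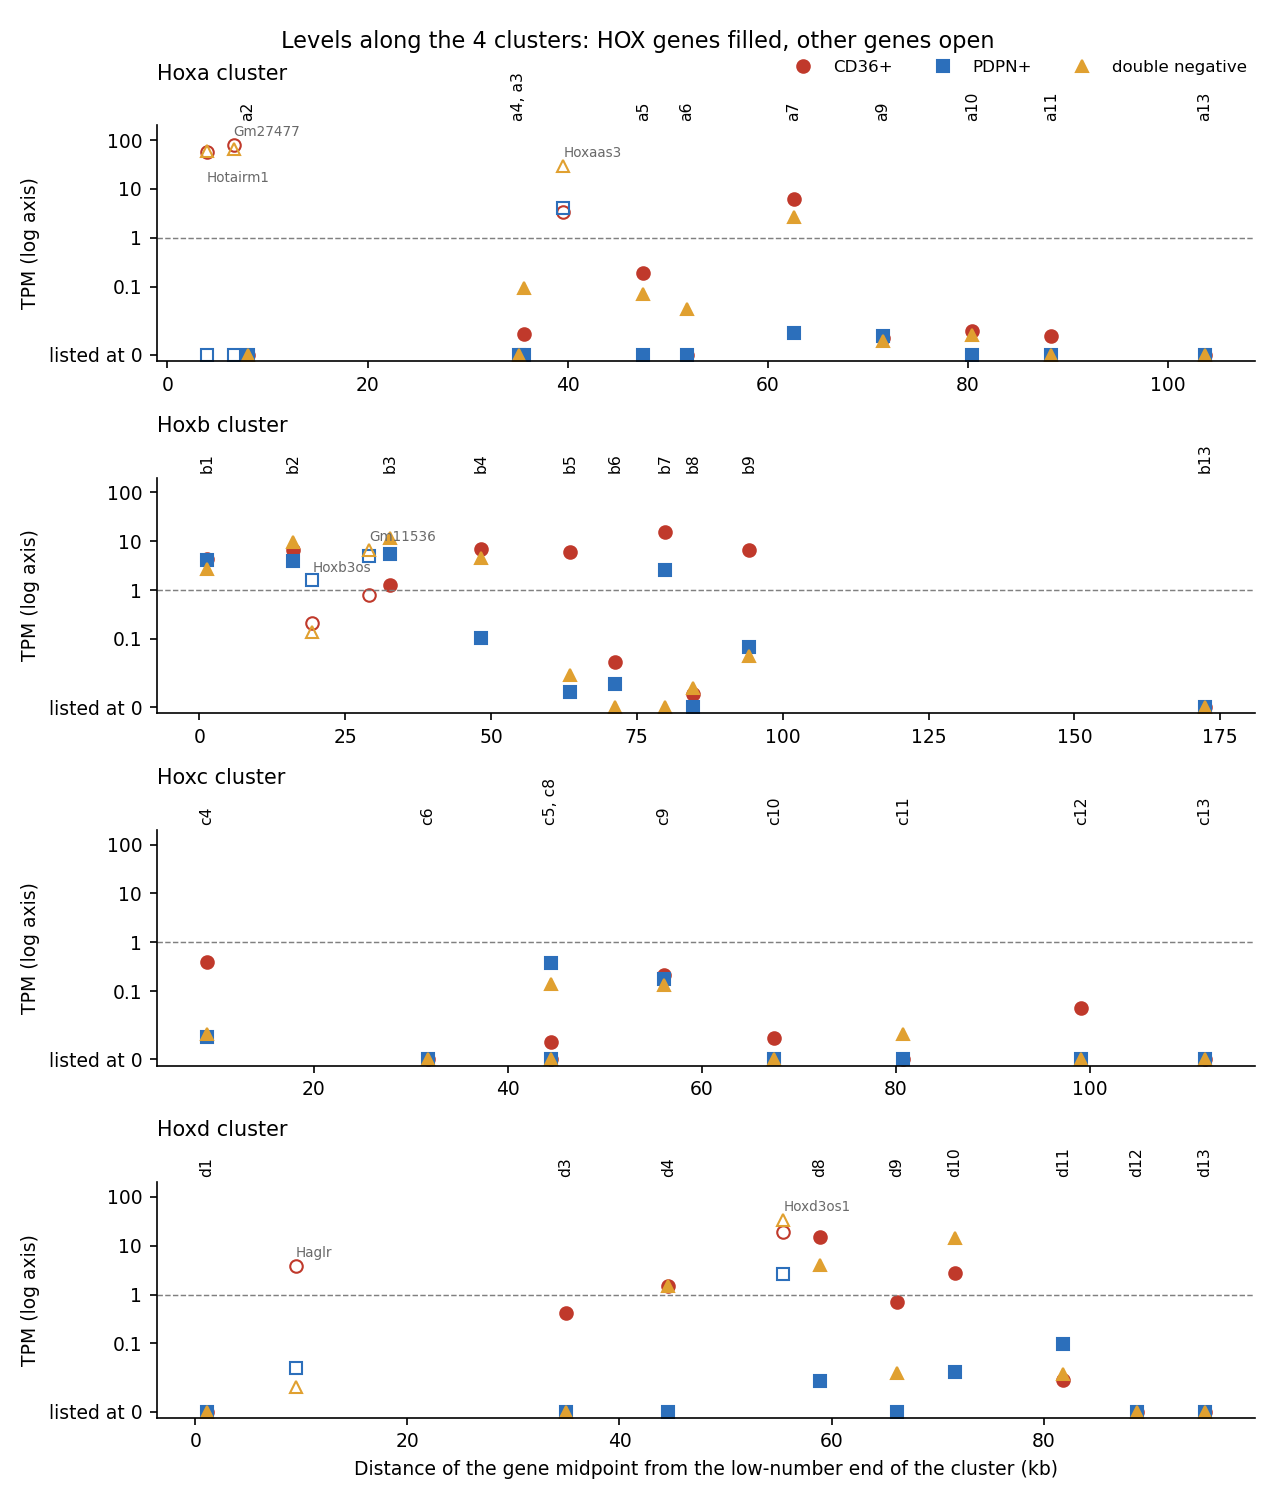
Levels of HOX genes (filled) and of the other genes inside each cluster that reached 1 CPM (open), by distance of the gene midpoint from the low-number end of the cluster in kb. The vertical axis is TPM on a log scale, points are single libraries, and the dashed line is 1 TPM. In the PDPN+ library the genes above the line are Hoxb1, Hoxb2, Hoxb3 and Hoxb7, with Hoxaas3, Gm11536, Hoxb3os and Hoxd3os1 among the others.

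Hoxb1, Hoxb2 and Hoxb3, the genes of the low-number end of the Hoxb cluster, were read in all 3 libraries. In the embryo these genes pattern the hindbrain and its neural crest. Hoxb1 (chr11:96365752-96368256, plus strand, mm10 here and below) had 435 counts in CD36+, 371 in PDPN+ and 215 in double-negative cells, or 7.35, 5.02 and 4.26 CPM. CD36+ exceeded PDPN+ by 1.46-fold (1.27 to 1.69), and the PDPN+ and double-negative libraries were within counting error (1.18-fold, 0.993 to 1.40), a difference that turned direction under upper-quartile scaling. Hoxb1 was thus the most even of the 12. Hoxb2 (chr11:96350525-96354012, plus strand) had 514, 278 and 577 counts, or 8.68, 3.76 and 11.4 CPM. It was highest in the double-negative library, 3.04-fold above the PDPN+ library (2.63 to 3.52) and 1.32-fold above the CD36+ library (1.17 to 1.49).

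Hoxb3 (chr11:96323326-96347930, plus strand) went the other way from the rest in the CD36+ library, where it was lowest. It had 27, 178 and 131 counts, or 0.456, 2.41 and 2.59 CPM. The PDPN+ library was 5.28-fold (3.51 to 8.23) and the double-negative library 5.69-fold (3.74 to 8.96) above the CD36+ library. By TPM its levels were 1.27, 5.47 and 11.5, and the double-negative interval (9.66 to 13.7 TPM) lay above the PDPN+ one (4.71 to 6.35 TPM). The log2 ratio of those libraries was 1.06 by TPM and 0.11 by CPM, so they were near equal only by CPM. Among the 12, Hoxb3 was the only gene whose PDPN+ level exceeded the CD36+ level. Of its annotated exonic bases, 52.9% are shared with Hoxb3os on the opposite strand. The sources used here do not say whether strand was used in counting, and reads of both genes cannot be told apart over those bases.

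Hoxb4 and Hoxd4, of paralogue group 4, were read in the CD36+ and double-negative libraries and nearly absent from the PDPN+ library. HOXB4 is known for expanding blood stem cells. Hoxb4 (chr11:96318267-96321638, plus strand) had 867 counts in CD36+, 12 in PDPN+ and 460 in double-negative cells, or 14.6, 0.162 and 9.11 CPM. That was 90.3-fold (51.4 to 175) and 56.1-fold (31.8 to 109) above the PDPN+ library. The CD36+ library exceeded the double-negative library by 1.61-fold (1.43 to 1.80). Hoxd4 (chr2:74711929-74729160, plus strand) had 104, 0 and 82 counts, or 1.76 CPM for CD36+ and 1.62 CPM for double-negative cells. Against a floor of 3 counts in the PDPN+ library (0.0406 CPM), these were at least 43.3-fold and at least 40.0-fold higher. The CD36+ and double-negative libraries did not differ beyond counting error for Hoxd4 (1.08-fold, 0.802 to 1.46), and the direction turned by TPM and by total-count scaling.

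Hoxb5, Hoxb7 and Hoxb9, farther along the cluster, set the CD36+ library apart from the double-negative one. HOXB5 is known to act on the VEGF receptor gene Kdr in endothelial precursors, HOXB7 to induce angiogenic growth factors in tumour cells, and Hoxb9 to act with other group 9 genes in mammary gland development. Hoxb5 (chr11:96303336-96306121, plus strand) had 559 counts in CD36+, 1 in PDPN+ and 2 in double-negative cells, or 9.44, 0.0135 and 0.0396 CPM. The ratio to the PDPN+ library was 698 (interval 125 to 27632) and to the double-negative library 238 (65.7 to 1973). Hoxb9 (chr11:96271457-96276595, plus strand) had 824, 7 and 4 counts, or 13.9, 0.0947 and 0.0792 CPM, with ratios of 147 (71.1 to 367) and 176 (68.4 to 646). Both were read almost only in the CD36+ library.

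Hoxb7 (chr11:96286623-96290162, plus strand) had 899 counts in CD36+, 135 in PDPN+ and 0 in double-negative cells, or 15.2, 1.83 and 0 CPM. CD36+ exceeded PDPN+ by 8.32-fold (6.94 to 10.04). Against the floor in the double-negative library (0.0594 CPM), the CD36+ level was at least 256-fold and the PDPN+ level at least 30.7-fold higher. Hoxb7 was the only one of the 12 with no count in the double-negative library while both others had some. Its paralogue Hoxa7 (chr6:52214491-52221854, minus strand), the one Hoxa gene to reach 1 CPM, was distributed differently: 297, 1 and 207 counts, or 5.02, 0.0135 and 4.10 CPM. Hoxa7 was high in both the CD36+ and double-negative libraries, with ratios to the PDPN+ library of 371 (66.1 to 14704) and 303 (53.8 to 12033). The CD36+ library exceeded the double-negative by 1.22-fold (1.02 to 1.47). By TPM its levels were 6.10 in CD36+ and 2.70 in double-negative cells, a larger log2 ratio of 1.15.

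The Hoxd genes of groups 8 to 10, neighbours in the cluster, divided the CD36+ and double-negative libraries. HOXD8 has been linked to lymphatic vessel genes, and HOXD10 to the quiescent state of endothelial cells. Hoxd8 (chr2:74704615-74707933, plus strand) had 1994 counts in CD36+, 2 in PDPN+ and 186 in double-negative cells, or 33.7, 0.0270 and 3.68 CPM. CD36+ exceeded double-negative by 9.14-fold (7.86 to 10.7). By TPM its levels were 15.2 and 4.11, a log2 ratio of 1.86, which is under 4-fold. The ratios to the PDPN+ library were 1246 (344 to 10292) for the CD36+ and 136 (37.2 to 1133) for the double-negative library. Hoxd10 (chr2:74691924-74695105, plus strand) had 244, 2 and 965 counts, or 4.12, 0.0270 and 19.1 CPM. It was highest in the double-negative library, 4.64-fold above the CD36+ library (4.03 to 5.36), with a ratio to the PDPN+ library of 707 (195 to 5844). Hoxd9 (chr2:74697727-74700208, plus strand), which lies between them, had 74, 0 and 2 counts, or 1.25 CPM for CD36+ and 0.0396 CPM for double-negative cells. Its CD36+ level was at least 30.8-fold above the PDPN+ floor and had a ratio of 31.6 to the double-negative library (8.43 to 265). Neighbouring Hoxd genes therefore had opposite orders in these 2 libraries.

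**Figure D3:**
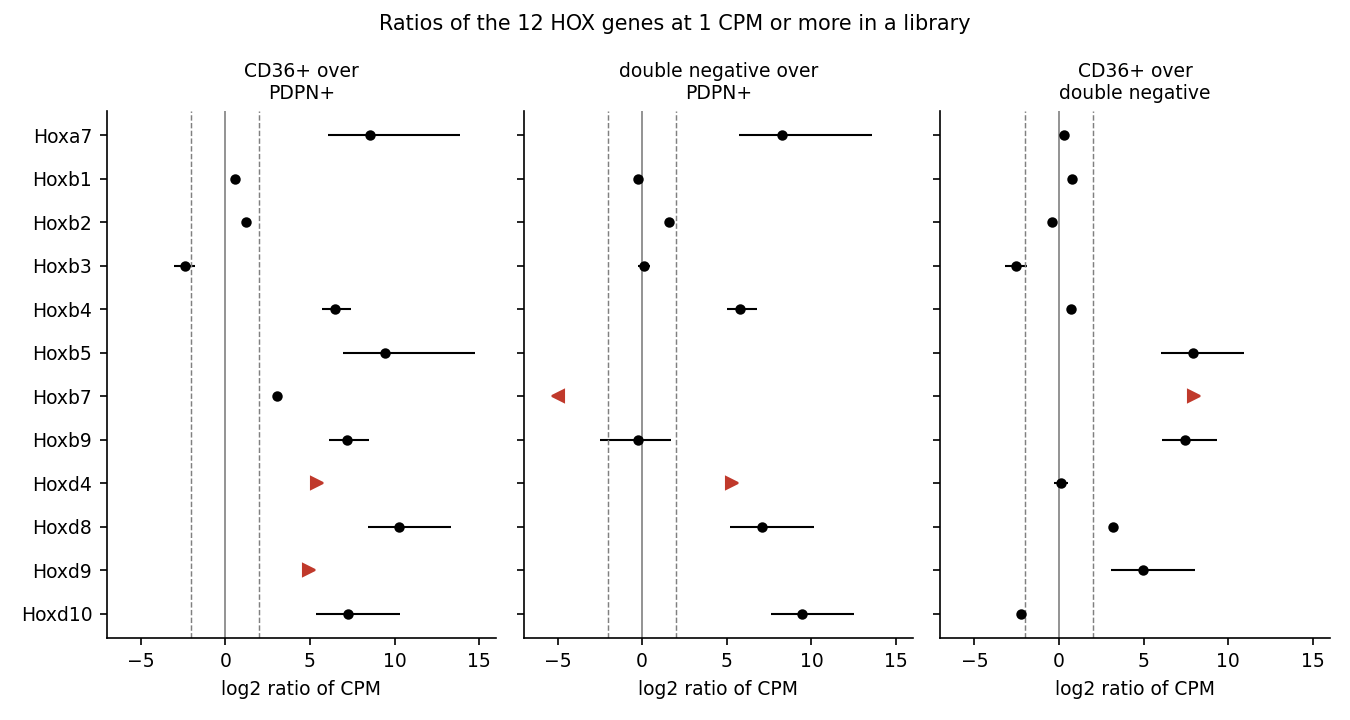
Log2 ratio of CPM between each pair of libraries for the 12 HOX genes that reached 1 CPM, with 95% counting intervals as bars and arrows where the lower library had 0 counts and the size is a lower bound. Dashed lines mark 4-fold. No point is drawn where both libraries were at or under 3 counts. The CD36+ to PDPN+ ratios are above 0 for 11 genes and below 0 for Hoxb3.

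A ratio of 4-fold or more, computed with a prior count of 2, was called apart if the level reached 10 CPM on its higher side. Between the CD36+ and PDPN+ libraries, 4 HOX genes reached 10 CPM, and Hoxb4, Hoxb7, Hoxb9 and Hoxd8 were apart and higher in the CD36+ library. No HOX gene reached 10 CPM in the PDPN+ library. Each HOX gene entered this comparison, and that of the double-negative with the PDPN+ library, through the other library, so the minimum fixed the direction and nothing is read from the counts. By TPM, with the minimum at 10 TPM, Hoxb7 and Hoxd8 alone were tested and apart. By CPM, of all 9387 genes that reached 10 CPM in either library, 15.1% were apart and higher in the CD36+ library. In the other direction it was 17.6%, and in either direction 32.7%. Between the double-negative and PDPN+ libraries, 1 of 2 HOX genes was apart, Hoxd10, higher in the double-negative library, where the background was 14.9% in that direction, 19.3% in the other and 34.2% in either. Between the CD36+ and double-negative libraries 4 of 6 were apart: Hoxb7, Hoxb9 and Hoxd8 were higher in the CD36+ library (background 12.2%) and Hoxd10 in the double-negative library (11.9%), with 24.2% of all genes apart in either direction. By TPM 3 of 4 were apart, and the split turned to 1 higher in CD36+ (Hoxb7) and 2 higher in double-negative cells (Hoxb3 and Hoxd10). Hoxd8 was then under 4-fold, and Hoxb9 was below the minimum. The shares of all genes given here are by CPM and cannot be set beside the counts by TPM. By CPM and by TPM, each HOX gene tested between these libraries reached the minimum in only 1 of them. The minimum thus fixed the direction here too, and nothing is read from these counts.

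With the minimum lowered to 1 CPM, the CD36+ library was at least 4-fold above the PDPN+ library for 9 of 12 HOX genes and below it for Hoxb3, beside 16.8% and 22.8% of all genes (39.6% in either direction). The double-negative library was above the PDPN+ library for 5 of 9 (Hoxa7, Hoxb4, Hoxd4, Hoxd8 and Hoxd10) and below it for Hoxb7, beside 16.5% and 24.3% (40.8% in either direction). The CD36+ library was above the double-negative library for 5 of 12 (Hoxb5, Hoxb7, Hoxb9, Hoxd8 and Hoxd9) and below it for Hoxb3 and Hoxd10, beside 17.5% and 16.7% (34.2% in either direction). Only 4 HOX genes reached 1 CPM in the PDPN+ library, so the minimum again set the direction for most members in the comparisons with it. Between the CD36+ and double-negative libraries it set the direction for Hoxb3, Hoxb5, Hoxb7, Hoxb9 and Hoxd9. Of the genes called there, only Hoxd8 and Hoxd10 reached 1 CPM in both. Any 2 of these comparisons share a library, so their counts are not independent.

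Per transcript length, a different gene led in each library. In the CD36+ library Hoxb7 and Hoxd8 had the highest TPM, 15.2 each. Hoxb4, Hoxb9, Hoxb2, Hoxa7 and Hoxb5 followed at 6.78, 6.73, 6.61, 6.10 and 6.09 TPM, where each neighbour in the order overlapped the next in its counting interval. Hoxb1 (4.26 TPM) and Hoxd10 (2.79 TPM) came after them. In the PDPN+ library Hoxb3 led with 5.47 TPM, Hoxb1 and Hoxb2 followed at 4.08 and 4.02 TPM with overlapping intervals, and Hoxb7 had 2.55 TPM. In the double-negative library Hoxd10, Hoxb3 and Hoxb2 led at 14.1, 11.5 and 9.52 TPM, each overlapping its neighbour in interval, and Hoxb4 and Hoxd8 came next at 4.62 and 4.11 TPM. The Hoxd8 contrast between the CD36+ and double-negative libraries was smaller by TPM than by CPM, and the mean effective transcript length behind its counts was 2443 bases in the first and 1084 in the second.

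Summed by paralogue group, the CD36+ library had its highest TPM in group 7 (21.3) and group 8 (15.2). In the PDPN+ library groups 1 to 3 held 23.9%, 23.6% and 32.1% of the HOX TPM, most of the rest being group 7 (2.56 TPM). The double-negative library had 2 separate peaks by TPM, groups 2 and 3 (9.52 and 11.6 TPM) and group 10 (14.1 TPM), with 0.0889 TPM in group 5 and 0.0350 TPM in group 6. Its group 3 value was almost all Hoxb3 (11.5 TPM), whose reads were assigned to short transcripts. By CPM group 3 had only 2.77, beside 11.4 in group 2 and 10.8 in group 4. Group 6 was low in all 3 libraries, between 0.0118 and 0.0350 TPM, although its neighbours in group 5 and group 7 reached 6.28 and 21.3 TPM in the CD36+ library. Groups 11 to 13, the 9 genes used towards the tail and limb ends, had at most 15 counts in any library, for Hoxd11 in the PDPN+ library (0.203 CPM).

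**Figure D4:**
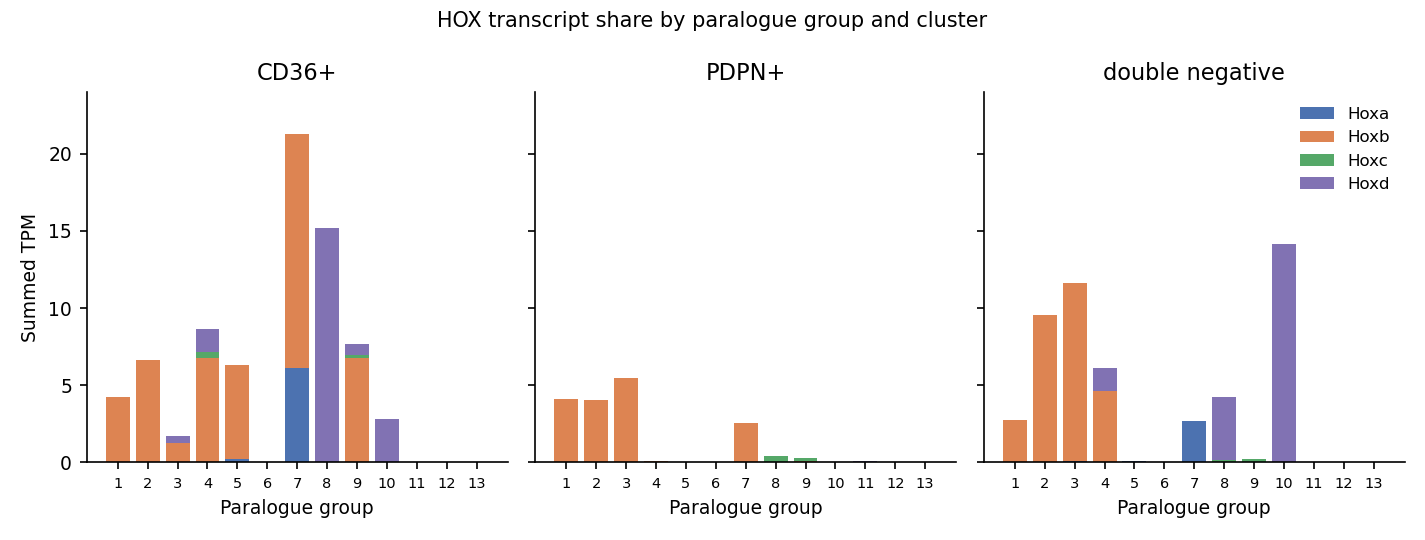
Summed TPM of the HOX genes by paralogue group, with the clusters stacked in colour, in each library. The CD36+ library is highest in groups 7 and 8, the PDPN+ library in groups 1 to 3, and the double-negative library in groups 2, 3 and 10.

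The other 27 HOX genes stayed below 1 CPM in all 3 libraries. Of these, 10 had 0 counts everywhere (Hoxa2, Hoxa4, Hoxa13, Hoxb13, Hoxc5, Hoxc6, Hoxc13, Hoxd1, Hoxd12 and Hoxd13). Among all protein-coding genes 12.3% had 0 counts everywhere, and among HOX genes 25.6%. At a count of 0, a level up to 0.0507 CPM in CD36+, 0.0406 in PDPN+ and 0.0594 in double-negative cells was not detectable. Another 10 had 1 to 3 counts at most, Hoxb6 and Hoxb8 among them, although both lie between Hoxb5 and Hoxb9, and Hoxb7 lies between the pair.

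The remaining 7 had between 9 and 57 counts in their highest library. Hoxd3 was just below the limit of 1 CPM, with 57 counts in the CD36+ library (0.963 CPM) and 0 in both others, while Hoxd9 at 1.25 CPM was just above it. Hoxc4 was also read mainly in the CD36+ library, with 38, 1 and 1 counts, as was Hoxa5, with 17, 0 and 5 counts. Hoxa5 is known as a factor that restrains angiogenesis and is used in mammary epithelium. Hoxc8 and Hoxd11 were highest in the PDPN+ library, Hoxc8 with 1, 37 and 12 counts and Hoxd11 with 3, 15 and 3 counts. Hoxc9 was even, with 21, 18 and 12 counts, and Hoxa3 had 1, 0 and 9 counts.

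TPM and counts together give the mean effective length of the transcripts to which the reads of a gene were assigned, and this was set against the transcripts of the GENCODE M21 annotation. For 18 HOX genes, 31 values with at least 15 counts could be checked. Of these, 21 matched a single protein-coding transcript within 1% of its effective length, among them Hoxb1, Hoxb2, Hoxb4, Hoxb5, Hoxb7, Hoxd4, Hoxd9 and Hoxd10 in every library checked, and Hoxd8 in the CD36+ library. Another 3 matched a transcript with no coding annotation: Hoxd3 in the CD36+ library a retained-intron transcript of 2721 bases, Hoxc8 in the PDPN+ library a retained-intron transcript of 2223 bases, and Hoxd11 in the PDPN+ library a processed transcript of 3367 bases. The other 7 matched no single transcript. They were Hoxb3 in all 3 libraries, Hoxa7, Hoxb9 and Hoxc9 in the CD36+ library, and Hoxd8 in the double-negative library. For Hoxb3 in the double-negative library the implied effective length was 271 bases, 1.28% off the effective length of a processed transcript of 446 bases, while its coding transcripts run from 664 to 3190 bases. The implied Hoxb3 length was 387 bases in the CD36+ and 678 in the PDPN+ library.

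The clusters hold 46 other annotated genes between their first and last HOX gene, most of them non-coding, and 7 reached 1 CPM. Hotairm1 (chr6:52156902-52162119, plus strand), a long non-coding RNA known from myeloid cells, had 710 counts in CD36+, 0 in PDPN+ and 547 in double-negative cells. At 11.99 and 10.8 CPM, it was at least 296-fold and at least 267-fold above the PDPN+ floor. Hoxa2, a coding gene close to it, had 0 counts. The short RNA gene Gm27477 next to Hotairm1 had 149, 0 and 95 counts.

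Hoxaas3, an antisense RNA across Hoxa3 to Hoxa7, was read in all 3 libraries, at 6.13 CPM in CD36+, 5.42 in PDPN+ and 17.4 in double-negative cells. The double-negative level was 2.83-fold above the CD36+ level (2.50 to 3.21) and 3.20-fold above the PDPN+ level (2.84 to 3.61). By TPM its levels were 3.35, 4.14 and 29.7, a wider gap. The mean effective length of the transcripts behind its reads was 2016, 2021 and 707 bases in the same order. Its exons share 586 bases with Hoxa7, whose 1 count in the PDPN+ library stood beside 401 counts of Hoxaas3. Hoxb3os, antisense to Hoxb3 and Hoxb2, had 23, 134 and 11 counts and was highest in the PDPN+ library, 4.66-fold above the CD36+ library (2.98 to 7.61) and 8.32-fold above the double-negative library (4.50 to 17.1). Gm11536, inside Hoxb3, had 15, 82 and 100 counts.

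In the Hoxd cluster, Hoxd3os1 had 534, 99 and 445 counts, or 9.02, 1.34 and 8.81 CPM, and the CD36+ and double-negative libraries did not differ beyond counting error (1.02-fold, 0.901 to 1.16). By TPM it had 19.1, 2.63 and 33.9, with the double-negative library above the CD36+ one. Haglr, the long non-coding RNA between Hoxd1 and Hoxd3, had 401, 2 and 1 counts, or 6.77, 0.0270 and 0.0198 CPM. Like Hoxb5, Hoxb9 and Hoxd9, it was read almost only in the CD36+ library, with ratios of 250.5 to the PDPN+ library (68.9 to 2075) and 342 to the double-negative library (61.0 to 13542). All 7 microRNA genes annotated inside the clusters had 0 counts. Total RNA libraries are not built to measure such short RNAs. Among the 12 HOX genes, 6 share exonic bases with another annotated gene (Hoxa7, Hoxb2, Hoxb3, Hoxb5, Hoxd4 and Hoxd10), 5 of them with one on the opposite strand. Hoxb1, Hoxb4, Hoxb7, Hoxb9, Hoxd8 and Hoxd9 share none.

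**Figure D5:**
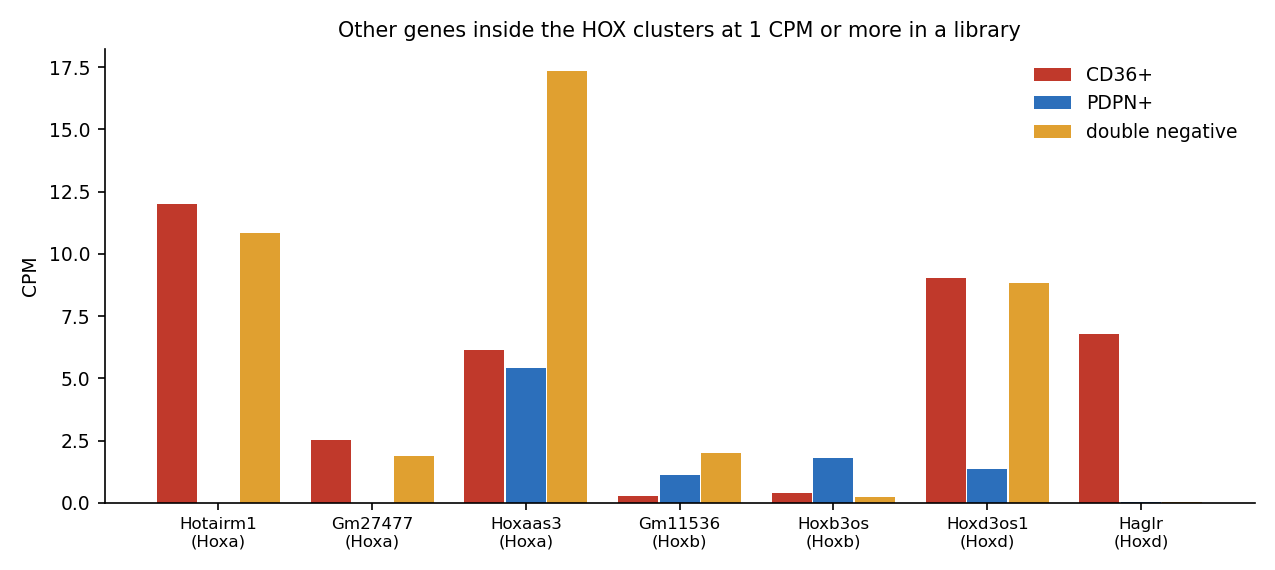
Level in CPM of the 7 other genes inside the HOX clusters that reached 1 CPM in a library, with the cluster of each in parentheses. Bars are single libraries. Hotairm1 and Gm27477 have no bar in the PDPN+ library, and Haglr is visible only in the CD36+ library.

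Sequence upstream of the start site is shown for genes chosen by their CPM in a library beside paralogues of the same number that were low, to let the windows of read and unread genes be compared. Each is the 250 bases before a RefSeq start on GRCm38.p6, written along the gene's strand from its far end to the base before the start. Windows were present for 22 of the 39 genes (24 windows), and those that overlap annotated exons are not printed. Capitals mark matches, on either strand, to the TATA box TATAAA, the CCAAT box (its 5 letters), the GC box GGGCGG, the joint PBX and HOX site TGATNNAT and the homeodomain core TAATTA. Hoxd8 (chr2:74704365-74704614, plus strand; 33.7 CPM in the CD36+ library) stands beside Hoxb8 (chr11:96281655-96281904, plus strand; at most 0.0198 CPM).
Hoxd8: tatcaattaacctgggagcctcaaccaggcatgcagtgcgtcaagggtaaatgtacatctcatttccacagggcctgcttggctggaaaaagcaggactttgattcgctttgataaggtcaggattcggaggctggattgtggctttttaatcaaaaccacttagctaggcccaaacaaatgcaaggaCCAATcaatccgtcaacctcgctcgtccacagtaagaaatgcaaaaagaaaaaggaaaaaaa
Hoxb8: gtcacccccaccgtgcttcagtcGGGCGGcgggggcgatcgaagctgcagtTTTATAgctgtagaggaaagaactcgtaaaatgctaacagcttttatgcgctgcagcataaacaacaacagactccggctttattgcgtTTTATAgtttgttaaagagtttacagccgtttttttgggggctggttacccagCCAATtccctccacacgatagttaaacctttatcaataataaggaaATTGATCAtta
Hoxd10 (chr2:74691641-74691890, plus strand; 19.1 CPM in the double-negative library) stands beside both starts of Hoxa10 (chr6:52234940-52235189 and chr6:52240855-52241104, minus strand; at most 0.0198 CPM).
Hoxd10: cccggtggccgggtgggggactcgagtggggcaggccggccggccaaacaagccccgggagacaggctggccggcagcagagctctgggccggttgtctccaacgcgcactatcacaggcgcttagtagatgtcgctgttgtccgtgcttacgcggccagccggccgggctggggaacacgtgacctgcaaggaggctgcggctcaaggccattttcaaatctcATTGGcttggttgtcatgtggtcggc
Hoxa10, inner start: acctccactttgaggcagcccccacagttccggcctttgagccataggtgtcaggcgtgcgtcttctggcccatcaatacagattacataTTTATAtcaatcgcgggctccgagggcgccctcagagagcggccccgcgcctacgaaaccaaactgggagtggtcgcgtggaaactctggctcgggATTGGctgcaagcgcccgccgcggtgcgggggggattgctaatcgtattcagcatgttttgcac
Hoxa10, outer start: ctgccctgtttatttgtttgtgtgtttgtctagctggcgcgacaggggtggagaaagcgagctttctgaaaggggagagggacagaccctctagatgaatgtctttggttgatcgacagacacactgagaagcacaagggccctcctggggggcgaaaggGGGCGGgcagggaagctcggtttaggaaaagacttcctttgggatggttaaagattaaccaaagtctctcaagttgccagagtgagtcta
Hoxb4 (chr11:96318017-96318266, plus strand; 14.6 CPM in the CD36+ library) stands beside Hoxd4 (chr2:74721728-74721977, plus strand; 1.76 CPM).
Hoxb4: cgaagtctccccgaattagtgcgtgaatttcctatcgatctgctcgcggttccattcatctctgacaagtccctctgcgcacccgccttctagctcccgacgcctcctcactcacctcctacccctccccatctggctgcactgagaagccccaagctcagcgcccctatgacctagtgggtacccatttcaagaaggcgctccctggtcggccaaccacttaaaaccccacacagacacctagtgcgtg
Hoxd4: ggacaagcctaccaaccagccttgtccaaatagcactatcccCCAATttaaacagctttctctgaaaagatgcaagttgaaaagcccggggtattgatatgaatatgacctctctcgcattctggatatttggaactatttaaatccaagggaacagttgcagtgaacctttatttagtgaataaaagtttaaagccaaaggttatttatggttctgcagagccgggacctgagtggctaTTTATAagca

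Both group 8 windows were 44.4% G and C. The window of the unread Hoxb8 held 5 matches, to TATAAA at positions -199 and -110, GGGCGG at -227, CCAAT at -57 and TGATNNAT at -11, where -1 is the base before the start. That of Hoxd8 held 1, a CCAAT at -62. The Hoxd10 window was 65.6% G and C with a CCAAT at -26, and the Hoxb4 window held no match. Over the 24 HOX windows, CCAAT was present in 58.3% and TGATNNAT in 16.7%, against 35.0% and 6.44% of 20126 windows of other protein-coding genes. TATAAA was present in 16.7% against 11.2%, GGGCGG in 41.7% against 44.1% and TAATTA in 8.33% against 4.27%. A match is a description of the letters and not a bound site. Overlapping matches were counted for each motif.

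Genes that work with or upstream of HOX genes were counted over lists, on the log2 ratio, among members that reached 1 CPM in some library. Of all 17533 such genes, 25.3% were at least 2-fold higher in CD36+ than in PDPN+ cells and 31.5% lower, with a median log2 ratio of -0.07. For double-negative against PDPN+ the shares were 26.3% and 32.4%, with a median of -0.05. The TALE cofactors, which bind DNA with HOX proteins, mostly had their higher level in the PDPN+ library, where HOX transcripts were lowest. Of 7 measured, 2 were at least 2-fold higher and 4 lower in CD36+ than in PDPN+ cells, and double-negative cells were higher for 1 and lower for 5 (median -5.92). Meis1 had 0.355 CPM in CD36+, 15.1 in PDPN+ and 0.218 in double-negative cells, 42.7-fold higher in the PDPN+ than in the CD36+ library (27.8 to 69.2). Pbx3 was the reverse in the CD36+ library and nearly absent from the double-negative one, with 14.2, 5.61 and 0.0396 CPM. Pknox1 was even, at 47.4, 34.1 and 37.0 CPM.

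Of 26 measured Polycomb genes, whose complexes keep HOX genes silent, 2 were at least 2-fold higher and 11 lower in CD36+ than in PDPN+ cells (median log2 ratio -0.86). Against PDPN+, double-negative cells were higher for 1 and lower for 11 (median -0.35). Ezh2, the H3K27 methyltransferase, had 11.6, 63.2 and 5.76 CPM, so that PDPN+ exceeded CD36+ by 5.44-fold (5.02 to 5.90) and double-negative by 10.97-fold (9.74 to 12.4). Pcgf6, of a variant Polycomb complex, had 13.5, 86.4 and 73.9 CPM, low only in the CD36+ library. The most abundant members, Rbbp7, Mtf2, Eed and Rybp, all differed by less than 2-fold between libraries by CPM. Of 18 trithorax and H3K27 demethylase genes, 2 were higher and 6 lower in CD36+ than in PDPN+ cells (median -0.14), and double-negative cells were higher for 1 and lower for 8 (median -0.91). Kdm6b, a demethylase that removes the Polycomb mark, had 232, 121 and 122 CPM and CD36+ exceeded PDPN+ by 1.91-fold (1.86 to 1.96). Ash2l, a core subunit of the H3K4 methyltransferases, had 3.63, 51.9 and 4.67 CPM.

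Of 12 measured genes of retinoid signalling and other upstream regulators, 7 were higher and 3 lower in CD36+ than in PDPN+ cells (median 1.50). The summed level went the other way, at 95.7 CPM in CD36+, 200 in PDPN+ and 89.6 in double-negative cells. Of the 21 genes listed, only 9, 6 and 7 reached 1 CPM in the same order. Aldh1a3, which makes retinoic acid, had 19.0, 9.05 and 23.9 CPM. The receptor gene Rarg was highest in the double-negative library, at 7.87, 7.94 and 18.7 CPM. Of the 11 CTCF and cohesin genes, which shape the folding of the clusters, CD36+ was at least 2-fold above PDPN+ for 0 and below it for 1. That gene was Stag1, a cohesin subunit named after its values were seen, at 84.4, 170.2 and 76.1 CPM. The cohesin loader Nipbl had 246, 479 and 347 CPM, with PDPN+ 1.94-fold above CD36+ (1.91 to 1.98). Of 54 homeobox genes outside the clusters, 31 were measured, and 9 were higher and 11 lower in CD36+ than in PDPN+ cells (median -0.12). Meox2, Meox1, Hhex, Hlx and Zeb1 had the distribution of Hoxb4 and Hoxa7, high in the CD36+ and double-negative libraries: Meox2 had 89.3, 0.0135 and 70.0 CPM and Hhex 43.3, 0.0406 and 50.8 CPM. Tgif1 was even, at 407, 371 and 427 CPM.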

How the data were processed

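Per the file headers, the deposited tables hold estimated counts and TPM by gene, 1 table for each library. Per the submitters' processing notes these came from Salmon 0.9.1 on mm10. The sources used here give no annotation release and no strand setting. The estimated counts were rounded and scaled by TMM factors over the 3 libraries (edgeR 4.0.16, R 4.3.3). Log2 ratios used a prior count of 2. Those by TPM instead had 0.1 TPM added to each level, so they differ slightly from the ratio of the levels printed. Names, exons and coordinates came from GENCODE M21, matched without version suffix (52566 of 52661 identifiers). Fold intervals are exact Clopper-Pearson at 95%, and a library at 0 was set to 3 counts. Reads have no molecular identifiers and may be PCR copies, which these intervals do not cover. Calling and intervals were tested on simulated counts with counting error only, and with a minimum of 1 CPM instead of 10 CPM. Variation between samples and errors in assigning reads were not simulated, so the test does not cover them. The deposited length columns were not used, since they disagreed with counts and TPM, and lengths were derived from those. Named genes are HOX genes and other cluster genes at 1 CPM or more, and from each list the 4 highest by mean CPM plus those 4-fold apart at 50 CPM. Some genes are not reported here. Marker genes named beyond this, and the HOX genes below 1 CPM, were chosen after their values were seen. The HOX set and the lists were chosen with earlier results of these data known. Scalings, minimum levels, folds, prior counts and TPM were tried as alternatives. Python 3.11.15 with pandas 2.3.3, numpy 2.4.6, scipy 1.17.1 and matplotlib 3.10.9 was used.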

Additional observations from a re-analysis of the deposited data

How the results depend on the processing

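No paired analysis was possible because each population has 1 library and none can be left out. The number of HOX genes apart between the CD36+ and PDPN+ libraries, 4 as reported, was 10 with a minimum of 1 CPM, 14 with no minimum and 2 by TPM. Between the double-negative and PDPN+ libraries it was 1, and 6 with a minimum of 1 CPM, 8 with no minimum, 2 at a 2-fold limit and 0 without members that share exons with another gene. Between the CD36+ and double-negative libraries it was 4, and 7 with a minimum of 1 CPM, 11 with no minimum and 3 by TPM (Hoxb3, Hoxb7 and Hoxd10), where Hoxd8 and Hoxb9 were no longer called. With no minimum all 39 HOX genes were tested, those at 0 counts included. The shares of all genes given above are for 4-fold with a minimum of 10 CPM or 1 CPM. Counts apart at the other settings have no such share beside them, so nothing is read from their size. The number detected was 11 (CD36+), 4 (PDPN+) and 8 (double-negative), and 4, 0 and 2 at 10 CPM. The share of protein-coding genes at 10 CPM was 31.7%, 33.8% and 31.5%. Above 3 counts the number of HOX genes was 9 in the PDPN+ and 13 in the double-negative library, with no share of all genes given beside it. The log2 ratios of the 12 named HOX genes were recomputed in 180 values, of which 5 turned direction, all from ratios near 0: Hoxb1 (0.05 from -0.23) and Hoxb9 (0.02 from -0.19) for the double-negative against the PDPN+ library under upper-quartile scaling, Hoxb3 in the same comparison with total counts (-0.12 from 0.11), and Hoxd4 for the CD36+ against the double-negative library with total counts (-0.06 from 0.11) and by TPM (-0.02). None of 48 recomputed cluster ratios turned. Against TMM, scaling to total counts shifted log2 ratios, before any prior count, by -0.40, -0.23 and -0.17 in the 3 comparisons. Upper-quartile scaling shifted them by 0.27, 0.28 and -0.01. Depth limits the 27 genes below 1 CPM, and ratios to a library with 3 counts or fewer have wide intervals.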

Other observations

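The gene lengths in the deposited tables did not match the values beside them. In each library counts and TPM together imply an effective length per gene. Among genes with at least 50 counts it differed by more than 1% from the deposited effective length in 9576 of 13479 genes of the CD36+ library (71.0%), 10659 of 15178 of the PDPN+ library (70.2%) and 9262 of 13076 of the double-negative library (70.8%). Genes with a single annotated transcript matched it within 1% in 99.9% of cases in each library.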
